A study of Homo sapiens with 4 samples.

Results

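The 37 genes described here belong to the amino acid response driven by the transcription factor ATF4 and to the unfolded protein response of the endoplasmic reticulum (ER). They were taken as a list of gene symbols drawn up with earlier results of these data known, by a rule that sets no threshold on a measured value, and all probes annotated to them were read on 4 Illumina HumanHT-12 V4 bead arrays. Of the 37 genes, 35 had at least 1 named probe, among 20046 gene symbols on the array. CARS1 and HERPUD1 were not analysed here because no probe carried their name in the annotation used. The list was divided into an ATF4 arm of 28 genes (27 with a probe), which holds regulators, amino acid enzymes, amino acid transporters and tRNA synthetases, and a chaperone arm of 9 genes (8 with a probe), which holds ER chaperones and other ER stress genes.

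The arrays came from HuES6, an established human embryonic stem cell line, kept as undifferentiated cells in a serum replacement medium. This medium supplied every group with FGF2 (20 ng/ml) together with Activin A (5 ng/ml). For 4 h, cells received BMP4 at 20 ng/ml (a ligand of the BMP receptors), CHIR99021 at 5 µM (a GSK3 inhibitor that switches on canonical WNT signaling), or BMP4 and CHIR99021 at these same doses, while the untreated cells stayed in the medium. The comparison asks how early BMP and WNT inputs, alone and combined, bear on gene expression in these cells. There was 1 array a group and 1 cell line, so no difference below has a replicate check, no test was run and no p-value is given. Fewer cells expressing a gene and less RNA per cell cannot be told apart in such bulk samples.

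Between 15980 and 16762 probes per array were detected (detection p below 0.01), with the lowest number on the CHIR99021 array and the highest on the untreated one. Of 10 markers of undifferentiated human embryonic stem cells, 9 had a named probe, and all 9 were detected on all 4 arrays. With CHIR99021, 5 of these 9 were above untreated and 4 below, SOX2 the furthest at a log2 difference of -0.91. Of the named markers of other cell types, 6 of 8 for fibroblast or mesenchyme and 3 of 5 for neural cells were detected. For endoderm 1 of 4 and for blood or endothelium 1 of 5 were detected. Several were bright in untreated cells, with log2 levels of 11.9 for TUBB3, 11.1 for NES, 10.7 for THY1 and 8.3 for AFP, and CDH5 was at 6.5. PAX6, SOX17 and PTPRC were among those not detected on any array. The summed linear level of the detected fibroblast markers was 3199 with BMP4, 3006 with CHIR99021, 2709 with both and 3639 in untreated cells, and its part in the values below was not tested.

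The ATF4 pathway is a translational switch. Kinases that sense amino acid shortage, misfolded ER proteins, heme shortage or double-stranded RNA phosphorylate the initiation factor eIF2alpha, which slows general protein synthesis but lets the ATF4 mRNA be translated more, and ATF4 then turns on genes for amino acid synthesis, import and tRNA charging. The unfolded protein response has ATF6 and IRE1 as its other sensors, and these raise ER chaperones through the factors ATF6 and spliced XBP1. Because ATF4 and XBP1 are controlled largely after transcription, the mRNA levels measured by the arrays do not show the amount of active protein.

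The promoters were searched for response elements, which are shown because each arm is already known for an element of its own. Matches therefore illustrate the list and are no independent result about the arms. RefSeq promoters of GRCh38.p14, running from 250 bases before to 50 bases after the annotated start, matched 33 of the 37 genes by symbol. SHMT2, PYCR1, PSPH and SLC7A11 had none. Both strands were searched for the C/EBP-ATF response element, TGATGNAAN, at which ATF4 pairs with C/EBP factors. Examples from the ATF4 arm, with the element in capitals, read as follows.
ASNS: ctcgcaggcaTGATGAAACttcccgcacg
CEBPG: gcgcggcgtcTGATGCAACctgccggcaa
SLC7A1: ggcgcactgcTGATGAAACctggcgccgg
AARS1: ctaacttggcTGATGCAACtgcgagaaaa
NARS1: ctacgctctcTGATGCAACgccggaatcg
The ASNS sequence lies at chr7:97872458-97872486 on the minus strand, its element beginning 68 bases before the start. The CEBPG sequence lies at chr19:33374061-33374089 on the plus strand, its element beginning 42 bases before the start. The SLC7A1 sequence lies at chr13:29595663-29595691 on the minus strand, with the element 7 bases after the start. The AARS1 sequence, at chr16:70289676-70289704 on the plus strand, reads against the direction of the gene. The NARS1 sequence lies at chr18:57621804-57621832 on the minus strand, with the element 14 bases after the start. A gene was counted when any of its promoters held a match. Altogether these were 9 of 24 ATF4 arm genes with a promoter (CEBPG, CHAC1, ASNS, SLC3A2, SLC7A1, AARS1, GARS1, NARS1 and CARS1). In the chaperone arm it was 1 of 9 genes (HERPUD1), and among all 27305 genes with a promoter 4.45%.

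The element known for the chaperone arm is the ER stress response element, CCAAT and CCACG with 9 bases between them. ATF6 and the factor NF-Y bind to it together. Its matches, with the whole element in capitals, were as follows.
HSPA5: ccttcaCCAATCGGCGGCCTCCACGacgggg
HSP90B1 (first): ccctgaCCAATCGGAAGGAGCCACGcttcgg
HSP90B1 (second): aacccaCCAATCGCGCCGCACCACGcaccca
XBP1: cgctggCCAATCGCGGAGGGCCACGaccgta
CALR: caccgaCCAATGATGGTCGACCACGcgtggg
The HSPA5 sequence lies at chr9:125241385-125241415 on the minus strand, beginning its element 66 bases before the start. The HSP90B1 sequences lie at chr12:103930210-103930240 on the plus strand and chr12:103930315-103930345 on the minus strand. The XBP1 sequence lies at chr22:28800597-28800627 on the minus strand, and the CALR sequence at chr19:12938378-12938408 on the minus strand. These 4 genes of 9, and 0 of 24 genes of the ATF4 arm, held the element, beside 0.0916% of all genes (25 genes). The unfolded protein response element TGACGTGG, whose last letters overlap with CCACG read on the other strand, was matched in ALDH18A1 and CARS1, beside 0.927% of all genes. A match is a description of the letters in this window and does not show binding, and a window with no match says nothing about the factors.

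Levels below are log2 intensities after background correction and quantile normalization of the 4 arrays, a gene is represented by its brightest probe, and differences are between such log2 levels. The size rule asks for a log2 difference of at least 1 in a gene that 1 or more of the compared arrays detected. All comparisons with untreated cells share the untreated array. As a scale for disagreement between probes, different detected probes of the same gene gave differences that lay 0.21 to 0.25 apart (medians over 2155 genes in the 5 comparisons). The 90th percentile of this gap was 0.53 to 0.63. The sign was the same for 53.5% to 63.7% of these genes. Both probes read the same arrays, so the gap leaves out variation between cultures and between arrays. The 35 genes used 45 probes, of which 40 were detected on all 4 arrays and 1 on none, and the brightest probe of 34 genes was detected on every array.

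No gene of the list passed the size rule in any of the 5 comparisons. The rule was met by 0.295% of all genes measured for BMP4 against untreated, 0.921% for CHIR99021 against untreated, 1.28% for both treatments against untreated, 0.416% for both against CHIR99021 and 0.811% for both against BMP4, so that on this list of 35 genes fewer than 1 gene would correspond to the share of all genes. The genes also moved little over the 4 arrays. The median distance between the highest and the lowest array was 0.36 (log2) over the 35 genes, beside 0.43 over all 11282 detected genes, and among genes with a mean log2 level of 8 or more it was 0.36 for 27 listed genes and 0.38 for all 3772. The widest distance belonged to CEBPB (0.90) and the narrowest to the cystine transporter gene SLC7A11 (0.11).

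**Figure D1:**
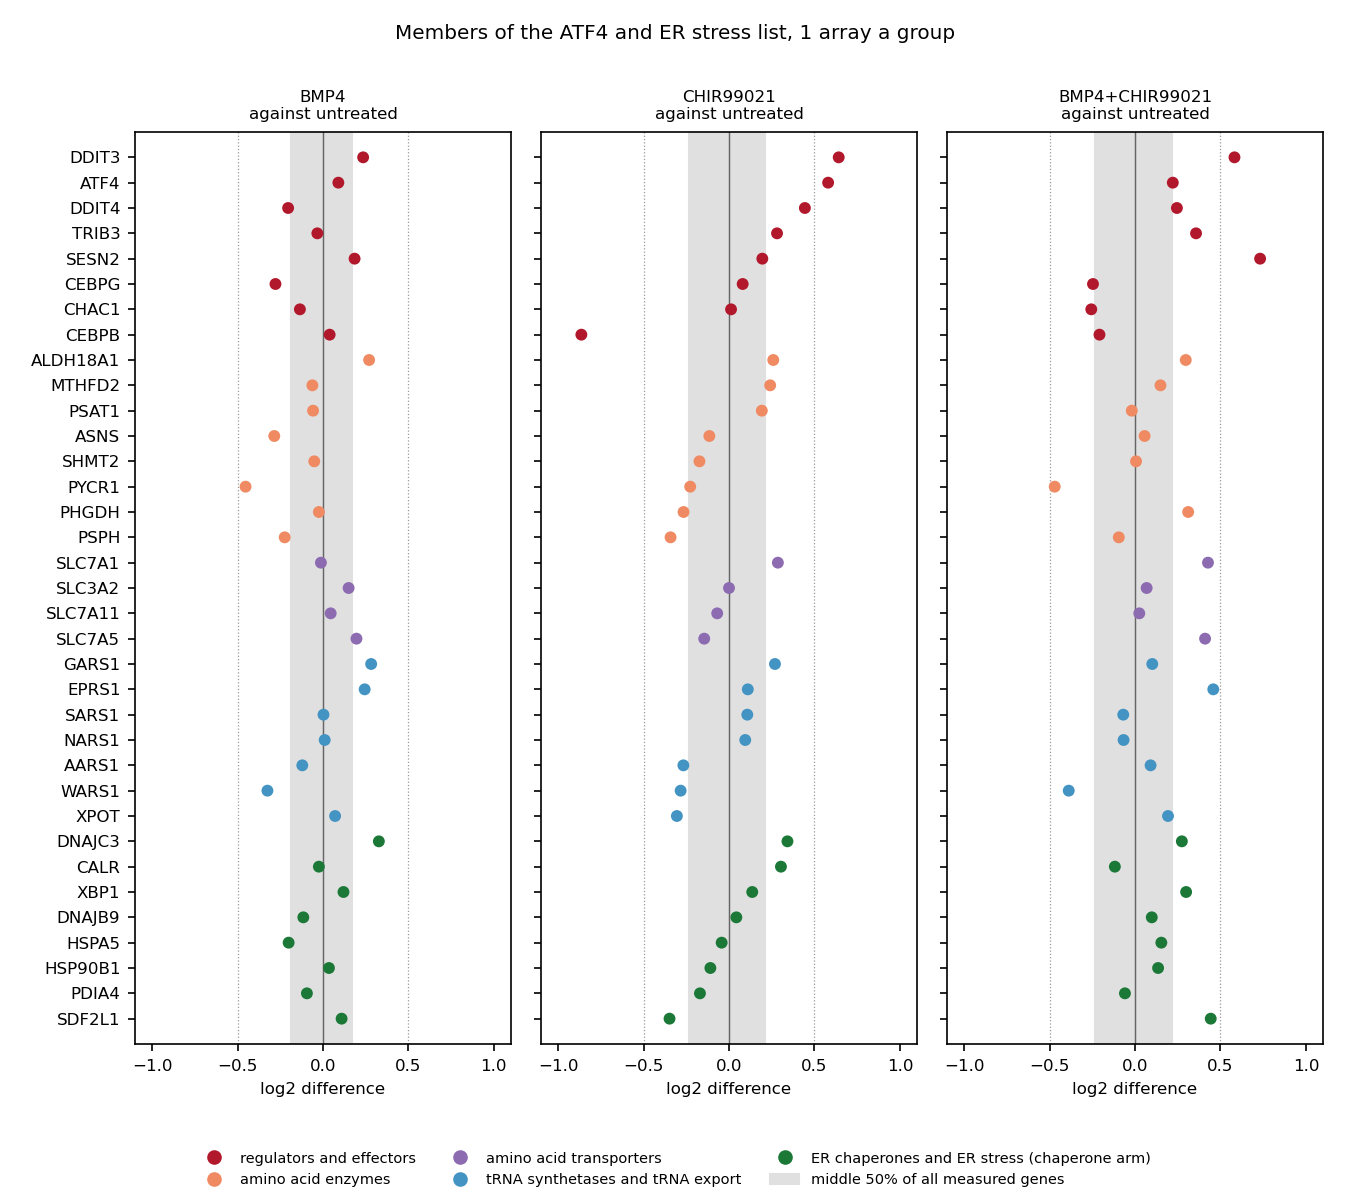
Log2 difference from the untreated array (x axis) of each of the 35 genes (rows, coloured by group, sorted within a group by the CHIR99021 difference) for BMP4, CHIR99021 and both, with the middle 50% of all measured genes in grey and dotted lines at 0.5 on either side. With CHIR99021, DDIT3 and ATF4 lie above 0.5 and CEBPB lies at -0.86, and with BMP4 all 35 genes lie inside the dotted lines.

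Under CHIR99021 the regulators of the ATF4 arm had a higher median difference than the amino acid enzymes. Of the 8 regulators and effectors, 7 were above untreated, beside 48.4% of all genes measured. Their median log2 difference was 0.24, beside -0.01 over all genes measured. The 7 include CHAC1 at 0.01 and CEBPG at 0.08. Of the 8 amino acid enzymes 3 were above untreated, with a median of -0.14. The enzyme values depend on the normalization. Under median scaling ASNS stood at 0.02, PHGDH at -0.06 and SHMT2 at -0.07, while PSPH stayed at -0.27 and PSAT1 rose to 0.33. At a size of 0.5 the higher genes were ATF4 and DDIT3 (2 of 35 genes, beside 6.03% of all genes) and the lower gene was CEBPB (1 of 35, beside 8.11%), which is near or below the background shares.

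ATF4, the basic leucine zipper factor of the pathway, was read by 3 probes. Its brightest probe had a log2 level of 13.09 with BMP4, 13.58 with CHIR99021 and 13.22 with both, against 12.999 in untreated cells. The CHIR99021 array was therefore the highest, by 0.58 over untreated (1.49-fold), and the array with both treatments lay below it by 0.36. The second probe gave 9.58 with BMP4, 9.98 with CHIR99021 and 9.78 with both, against 9.45 in untreated cells, the same order with a CHIR99021 difference of 0.53. A further, dim probe, not detected on the BMP4 array, was at 4.89 with BMP4, 5.16 with CHIR99021 and 5.47 with both, against 5.03 in untreated cells, so its highest array was that with both treatments. Among all genes measured, 3.73% were at least as far above untreated with CHIR99021 as the brightest ATF4 probe, and 1.75% of the genes with a mean level of 8 or more.

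DDIT3 encodes CHOP, a C/EBP factor that is induced by ATF4 in lasting ER stress. Its level was 5.82 with BMP4, 6.23 with CHIR99021 and 6.17 with both, against 5.58 in untreated cells. Both arrays with CHIR99021 were above both arrays without it, and the difference was 0.64 for CHIR99021 alone (1.56-fold) and 0.35 when CHIR99021 was added to BMP4. The probe was dim, and the CHIR99021 difference was 0.41 with an offset of 50 and 0.30 without background correction. DDIT4, which encodes the mTORC1 inhibitor REDD1, was at 8.79 with BMP4, 9.43 with CHIR99021 and 9.23 with both, against 8.99 in untreated cells. Here too the arrays with CHIR99021 were the higher ones, by 0.44 without BMP4 and by 0.45 with it.

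TRIB3, a pseudokinase induced by ATF4 and CHOP that restrains ATF4, and SESN2, a leucine sensor upstream of mTORC1, were chosen for full values after these were seen. TRIB3 stood at 8.14 with BMP4, 8.46 with CHIR99021 and 8.53 with both, against 8.18 in untreated cells, which again put the arrays with CHIR99021 above those without. SESN2 was at 6.11 with BMP4, 6.12 with CHIR99021 and 6.65 with both, against 5.92 in untreated cells. Only the array with both treatments stood apart for SESN2, by 0.73 over untreated (1.66-fold), 0.54 over CHIR99021 and 0.55 over BMP4. This probe was dim, and the difference from untreated was 0.39 without background correction.

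CEBPB, a C/EBP factor that dimerizes with ATF4, differed in the opposite direction. Its level was 10.49 with BMP4, 9.59 with CHIR99021 and 10.25 with both, against 10.45 in untreated cells. The CHIR99021 array was the lowest, 0.86 below untreated (1.82-fold), and only 1.15% of all genes measured were at least as far below untreated. With both treatments CEBPB stood 0.66 above CHIR99021 alone and 0.21 below untreated. CEBPG, a C/EBP factor that also pairs with ATF4, differed with the other treatment. It was at 8.45 with BMP4, 8.81 with CHIR99021 and 8.48 with both, against 8.73 in untreated cells. Both arrays with BMP4 were lower, by 0.28 without CHIR99021 and by 0.33 with it. CHAC1, a glutathione-degrading enzyme and a strong ATF4 target, lay within 0.27 over the 4 arrays.

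**Figure D2:**
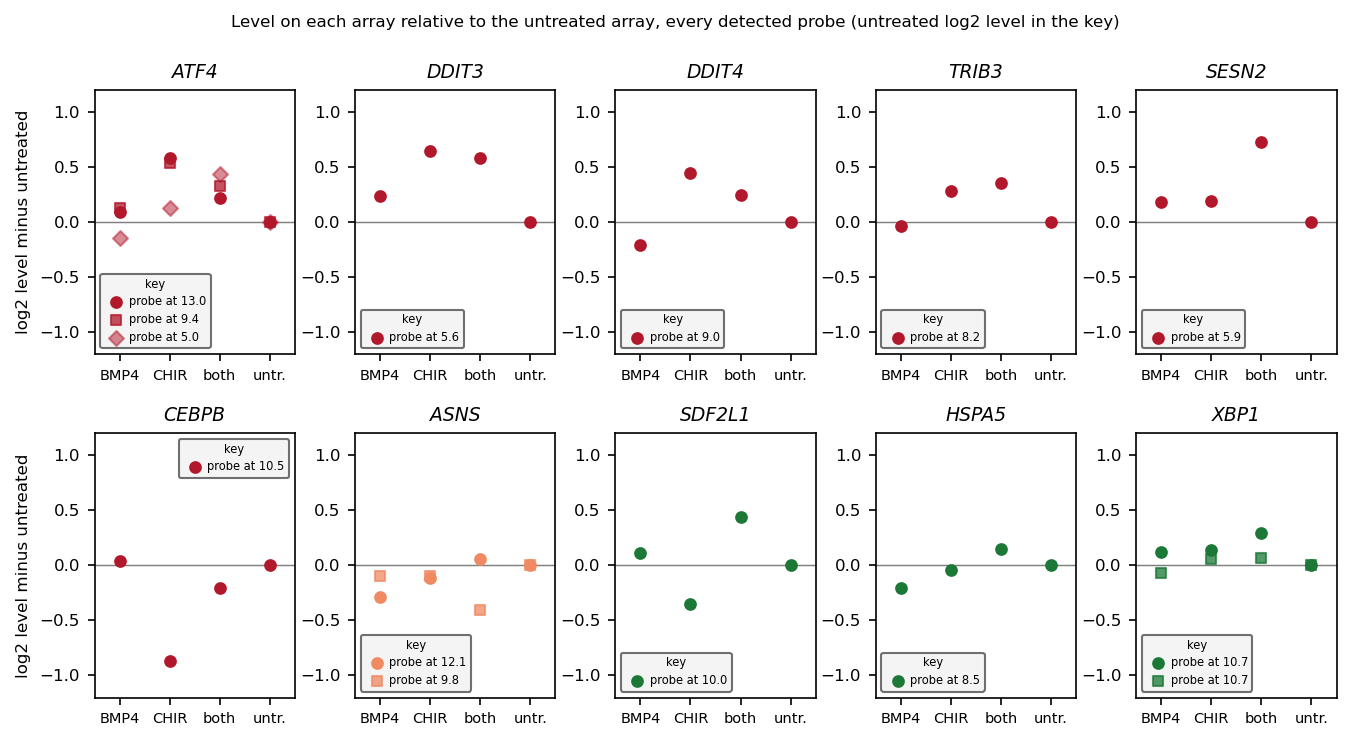
Log2 level on each array minus that of the untreated array (y axis) for 10 genes of the list, on the arrays with BMP4, CHIR99021 (CHIR), both and untreated (x axis), with each detected probe as a symbol and its untreated log2 level in the key. ATF4, DDIT3, DDIT4 and TRIB3 are above untreated on both arrays with CHIR99021. CEBPB is lowest on the CHIR99021 array and slightly below untreated with both. SDF2L1 lies below untreated with CHIR99021 and above it with both.

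The amino acid enzymes build asparagine, serine, glycine, proline and one-carbon units. ASNS, asparagine synthetase and a classical ATF4 target, had a level of 11.77 with BMP4, 11.94 with CHIR99021 and 12.11 with both, against 12.05 in untreated cells. Its second probe was at 9.69 with BMP4, 9.69 with CHIR99021 and 9.38 with both, against 9.79 in untreated cells. The probes placed the array with both treatments at opposite ends, highest by the brighter probe and lowest by the other, so no order of the treatments can be read for ASNS.

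Of the serine pathway, PSPH, which makes serine from phosphoserine, stood at 9.08 with BMP4, 8.97 with CHIR99021 and 9.21 with both, against 9.31 in untreated cells, and its second probe was 0.65 higher with both treatments than in untreated cells where the first was 0.10 lower. PHGDH, the entry enzyme of serine synthesis, was chosen after its values were seen, with 13.14 for BMP4, 12.90 for CHIR99021 and 13.48 for both, against 13.17 in untreated cells. The lowest PHGDH array was CHIR99021 and the highest was that with both, 0.58 apart. Of the proline pathway, ALDH18A1, which starts proline synthesis, was at 8.52 with BMP4, 8.51 with CHIR99021 and 8.55 with both, against 8.25 in untreated cells. All 3 treated arrays lay above untreated by 0.26 to 0.30. PYCR1, which completes proline synthesis, had 7.88 with BMP4, 8.11 with CHIR99021 and 7.87 with both, against 8.33 in untreated cells. The treated arrays were all lower, although 1 of the 2 dimmer PYCR1 probes, each detected on 2 arrays, placed all treated arrays above untreated. PSAT1, SHMT2 and MTHFD2 differed from untreated by 0.24 or less in each treatment.

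Among the transporters, SLC7A1, the arginine and lysine carrier CAT1, was chosen after its values were seen and stood at 10.05 with BMP4, 10.35 with CHIR99021 and 10.49 with both, against 10.06 in untreated cells. Both arrays with CHIR99021 were above both arrays without it. SLC7A5, the LAT1 subunit that imports leucine, ran from 12.56 on the CHIR99021 array to 13.11 with both treatments, a difference of 0.55. SLC3A2, the heavy chain shared by LAT1 and the cystine carrier, lay within 0.15 over the 4 arrays by its brightest probe. The second SLC3A2 probe gave 10.08 with BMP4, 8.96 with CHIR99021 and 9.81 with both, against 9.62 in untreated cells, so the probes disagreed by 0.66 under CHIR99021.

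The tRNA synthetases charge tRNAs with their amino acids, and XPOT exports tRNAs from the nucleus. GARS1 stood at 12.34 with BMP4, 12.32 with CHIR99021 and 12.16 with both, against 12.06 in untreated cells, all treated arrays being higher. EPRS1 was at 10.85 with BMP4, 10.71 with CHIR99021 and 11.06 with both, against 10.60 in untreated cells, where again the untreated array was lowest. WARS1 gave 10.11 with BMP4, 10.16 with CHIR99021 and 10.05 with both, against 10.44 in untreated cells. The 3 treated arrays were lower by this probe, but the second WARS1 probe placed CHIR99021 0.45 above untreated. XPOT was at 6.07 with BMP4, 5.69 with CHIR99021 and 6.19 with both, against 5.999 in untreated cells, so that CHIR99021 alone was lowest. AARS1, SARS1 and NARS1 differed from untreated by 0.27 or less. Of the 7 genes of this group 4 were above untreated with CHIR99021 and 5 with BMP4, beside 48.4% and 49.5% of all genes. The 5 include SARS1 at 0.003 and NARS1 at 0.010.

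The chaperone arm showed no common direction with either single treatment. Its median log2 difference was 0.00 for BMP4 and -0.00 for CHIR99021. In each case 4 of 8 genes were above untreated, beside 49.5% and 48.4% of all genes. HSPA5, the ER chaperone BiP and the usual marker of ER stress, had a level of 8.28 with BMP4, 8.44 with CHIR99021 and 8.63 with both, against 8.48 in untreated cells. XBP1, the factor spliced by IRE1, was at 10.80 with BMP4, 10.82 with CHIR99021 and 10.98 with both, against 10.68 in untreated cells. Its second probe stayed within 0.14 over the 4 arrays, and the sources used here do not say which mRNA form either probe reads.

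SDF2L1, an ER protein that assists BiP, varied most in this arm. It stood at 10.15 with BMP4, 9.69 with CHIR99021 and 10.48 with both, against 10.04 in untreated cells. The lowest array was CHIR99021 and the highest was that with both treatments, 0.79 apart (1.73-fold), and 1.31% of all genes were at least as far above CHIR99021. This share is for the pair of arrays furthest apart for this gene. For both treatments against untreated the share was 9.74%. CALR, the lectin chaperone calreticulin, ran the other way, with 9.98 for BMP4, 10.31 for CHIR99021 and 9.89 for both, against 10.003 in untreated cells. CHIR99021 alone was highest, by 0.30 over untreated and by 0.42 over both.

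DNAJC3, the co-chaperone p58IPK, was dim and was not detected in untreated cells. It was at 5.26 with BMP4, 5.27 with CHIR99021 and 5.20 with both, against 4.93 in untreated cells. Set against the lowest level among detected probes on the untreated array, these were 1.25-fold, 1.26-fold and 1.21-fold higher. The folds hold for the main processing only and are no lower bounds. The raw DNAJC3 intensity was 106.9, 108.6 and 102.6 in the same order, against 103.3 in untreated cells. Without background correction the log2 differences of DNAJC3 from untreated were 0.11, 0.11 and 0.09. HSP90B1, the ER chaperone GRP94, had 11.81 with BMP4, 11.66 with CHIR99021 and 11.91 with both, against 11.77 in untreated cells, a spread of 0.24. PDIA4, a disulfide isomerase, was at 7.59 with BMP4, 7.52 with CHIR99021 and 7.63 with both, against 7.69 in untreated cells, and DNAJB9, another BiP co-chaperone, had 6.23 with BMP4, 6.39 with CHIR99021 and 6.44 with both, against 6.35 in untreated cells. None of these 3 genes differed from untreated by more than 0.17.

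**Figure D3:**
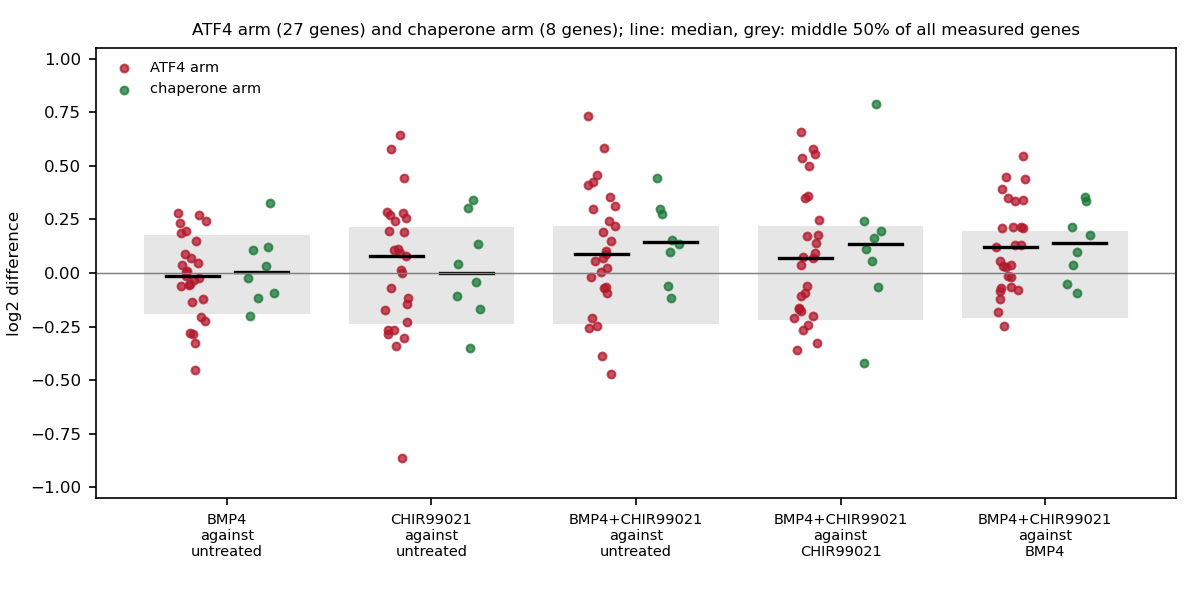
Log2 difference (y axis) of each gene of the ATF4 arm (red, 27 genes) and the chaperone arm (green, 8 genes) in the 5 comparisons (x axis), with the median of each arm as a line and the middle 50% of all measured genes in grey. The arm medians lie between -0.01 and 0.14 in all 5 comparisons. The grey band describes single genes and is no scale for a median over an arm.

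Setting the arms side by side, the median of the ATF4 arm under CHIR99021 was 0.08 and that of the chaperone arm -0.00, a distance of 0.08 beside a median of -0.01 over all genes. Under BMP4 the medians were -0.01 and 0.00, and with both treatments 0.09 and 0.14 against untreated cells. The 8 measured genes whose promoter held TGATGNAAN had a median CHIR99021 difference of 0.05, and the 23 whose promoter did not had 0.11. For the ER stress response element the medians were 0.05 over 4 genes with it and 0.10 over 27 without. Under BMP4 alone no gene of either arm differed by 0.5, beside 4.02% of all genes higher and 4.14% lower, and 28 of the 35 genes (80.0%) lay within 0.25, beside 64.5% of all genes. Under CHIR99021 alone, 19 of the 35 genes (54.3%) lay within 0.25, beside 55.4% of all genes.

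With both treatments, DDIT3 and SESN2 were above untreated by 0.5 or more and no gene was below (2 and 0 of 35 genes, beside 7.31% and 8.49% of all genes). Against CHIR99021 alone, SESN2, SLC7A5, PHGDH, CEBPB and SDF2L1 were higher with both treatments by 0.5 or more and none was lower (5 and 0 of 35 genes, beside 7.24% and 5.32%). For SLC7A5, PHGDH, CEBPB and SDF2L1 the CHIR99021 array was the lowest of the 4, and CEBPB with both was still below untreated. Against BMP4 alone, SESN2 was higher and no gene lower (1 and 0 of 35 genes, beside 5.2% and 5.98%). By the brightest probe, the array with both treatments was the highest of the 4 for 16 of the 35 genes (45.7%, beside 25.1% of all detected genes). The 16 include ASNS, whose second probe placed this array lowest. They also include SHMT2, only 0.006 above untreated, and ALDH18A1, only 0.028 above BMP4, both below the gap between probes of the same gene. The CHIR99021 array was highest for 11 (31.4%, beside 26.9%) and lowest for 11 (31.4%, beside 27.3%).

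The difference made by CHIR99021 can be read without BMP4 (CHIR99021 against untreated) and with it (both against BMP4), in comparisons that share no array. The sign was the same for 17 of the 35 genes (48.6%), beside 58.7% of all detected genes, for 7 of the 8 regulators and effectors and for 2 of the 8 chaperone arm genes. DDIT3, DDIT4, TRIB3 and SLC7A1 were higher by 0.25 or more in both readings (4 genes, 11.4%, beside 14.4% of all detected genes with 0.25 or more in 1 direction). ATF4 was above 0 in both readings at 0.58 and 0.13. The difference made by BMP4 had the same sign without and with CHIR99021 for 19 genes (54.3%), beside 57.2% of all detected genes, and CEBPG was the gene that differed by 0.25 or more in both (1 of 35, 2.9%, beside 11.0% of all detected genes).

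**Figure D4:**
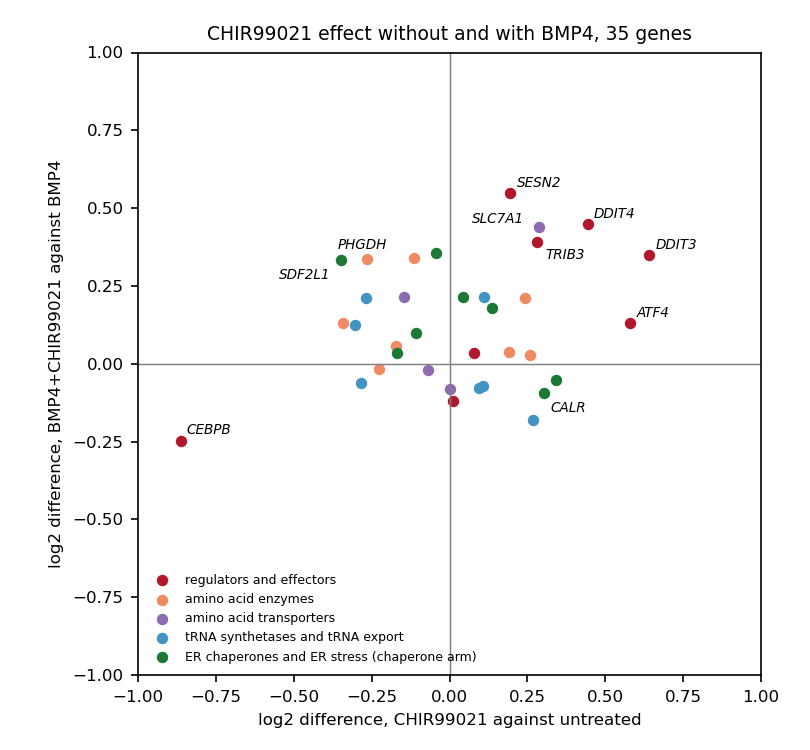
Log2 difference of CHIR99021 against untreated (x axis) and of both treatments against BMP4 (y axis), 1 point per gene for 35 genes, coloured by group. DDIT3, DDIT4, TRIB3 and SLC7A1 lie in the upper right, CEBPB alone lies at the far left at -0.86 and -0.25, and SDF2L1 and PHGDH lie in the upper left.

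The other genes of the pathway were read from further lists. Of the 8 eIF2alpha kinases and phosphatase subunits, all were detected and none passed the size rule in any comparison. PPP1R15A, which encodes GADD34 and brings phosphatase to eIF2alpha, was at 9.50 with BMP4, 8.98 with CHIR99021 and 9.68 with both, against 9.56 in untreated cells, the CHIR99021 array being lowest. EIF2AK3, which encodes the ER kinase PERK, was at 6.11 with BMP4, 6.09 with CHIR99021 and 5.72 with both, against 6.49 in untreated cells, so all treated arrays were lower. EIF2S1, eIF2alpha itself, was above untreated by 0.53 with BMP4, 0.39 with CHIR99021 and 0.62 with both. PPP1R15B, the constitutive phosphatase subunit, was not detected in untreated cells. With CHIR99021 it stood 1.09-fold above the lowest level among detected probes on the untreated array.

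Of 22 further ATF4 targets with a detected probe, none passed the size rule. Under CHIR99021, CTH, a cysteine-forming enzyme, was higher by 0.61 and STC2, a secreted glycoprotein induced by stress, by 0.46. EIF4EBP1, a repressor of cap-dependent translation, and CEBPD, a C/EBP factor, each stood at -0.58. With BMP4, EIF4EBP1 was at -0.53 and CEBPD at 0.265. The group median was 0.04 for CHIR99021 and 0.10 for BMP4. The 12 other cytoplasmic tRNA synthetases with a detected probe had a median of 0.10 under CHIR99021, with IARS1 at 0.29 and LARS1 at 0.27 as the highest and VARS1 at -0.46 and YARS1 at -0.15 as the lowest. The 14 detected mitochondrial synthetases had a median of 0.00, with YARS2 at 0.41 and RARS2 at 0.36 as the highest and SARS2 at -0.24 and AARS2 at -0.17 as the lowest.

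Beyond the chaperone arm, 23 of 28 further genes of the IRE1 and ATF6 branches and of ER folding or degradation were detected. Of these 23 genes, 1 passed the size rule for both treatments against CHIR99021, beside 0.416% of all genes measured. For both against BMP4 it was 1 gene, beside 0.811%, and in the other comparisons none. BLOC1S1, whose mRNA is a known substrate of IRE1 decay, was at 8.44 with BMP4, 8.72 with CHIR99021 and 7.54 with both, against 7.95 in untreated cells. It was 1.19 lower with both treatments than with CHIR99021 alone. CREB3, a membrane-bound transcription factor of the ER, was at 6.58 with BMP4, 6.01 with CHIR99021 and 5.34 with both, against 5.82 in untreated cells, 1.24 lower with both than with BMP4 alone. Each was highest on a single-treatment array and lowest with both treatments, and the CREB3 probe was dim. ATF6B, an ATF6 relative, stood 0.58 above untreated with CHIR99021, whereas EDEM1, an ER degradation factor, was at -0.55 and ERO1A, the ER oxidase, at -0.51. Of the 11 detected cytosolic heat shock genes, none passed the size rule, HSPA1B and HSPA1A, both encoding HSP70 and near-identical copies whose probes may share signal, were lowest under CHIR99021 at -0.62 and -0.37, and BAG3, an HSP70 co-chaperone, and HSPE1, the mitochondrial HSP10, were highest at 0.36 and 0.25.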

How the data were processed

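RNA of HuES6 cells was hybridized to 4 arrays, 1 a treatment as the labels name it. The authors deposited a linear intensity for each of 47321 probes per array without normalization, a detection p-value from GenomeStudio (version not given in the sources used here), and a second table of normalized intensity values, which served as an alternative. Raw medians ran from 88.7 to 93.6, and 33.8% to 35.4% of probes were detected.

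With limma 3.58.1 (R 4.3.3), the deposited intensities underwent normexp correction with an offset of 16, the background being estimated from the detection p-values, then quantile normalization and log2 transformation. Differences of dim probes are drawn towards 0 by the offset. Probes were named through a platform annotation, with symbols updated by Entrez ID through RefSeq (30112 of 47321 probes had 1 symbol, 8 had several and stayed unnamed, as did the 17201 that the annotation does not list). For a probe that 1 array missed, the printed fold holds for the main processing only. It was taken against the probe's level on that array or the lowest level of any detected probe there, whichever was higher.

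The members and lists were chosen with earlier results of these data known. Full values were given for ATF4, DDIT3, ASNS, HSPA5 and XBP1, for members past the size rule, and for the 3 highest and 3 lowest members of each arm under CHIR99021 and under BMP4. Of the other lists, full values were given for genes past the size rule. The 2 highest and 2 lowest genes of these lists under CHIR99021 were given mostly by that difference alone. Full values of TRIB3, SESN2, CEBPG, PHGDH and SLC7A1, the ranges of SLC7A5 and the second SLC3A2 probe were added after these values were seen. The size rule was first tried on simulated arrays, with changes larger than the rule in bright probes only. This does not show how the rule serves for dim probes or for variation between cultures. Protein sequences were not analysed here. Alternatives were no background correction, an offset of 50, median scaling, the authors' normalized values, detection on all 4 arrays, the mean over detected probes and a size of 0.5.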

Additional observations from a re-analysis of the deposited data

Results flagged for a closer look

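The log2 difference made by CHIR99021 had opposite signs without and with BMP4 for a pair of genes, each past 0.25 in both readings. For PHGDH it was -0.27 for CHIR99021 against untreated and 0.34 for both treatments against BMP4. For SDF2L1 it was -0.35 for CHIR99021 against untreated and 0.33 for both treatments against BMP4. Under median scaling the value for CHIR99021 against untreated was -0.06 for PHGDH and -0.23 for SDF2L1, so that neither was past 0.25 there. These are 2 of 35 genes (5.7%), beside 4.9% of all detected genes with such opposite signs. With 1 array a group the difference between the readings was not tested.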

How the results depend on the processing

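With 1 array a group, no replicate could be left out. No paired analysis was possible because each group holds 1 array. The count of members past the size rule was 0 in each direction of all 5 comparisons under no background correction, an offset of 50, median scaling, the authors' normalized values, detection on all 4 arrays and the mean over detected probes. At a size of 0.5 it was 2 higher and 1 lower for CHIR99021 against untreated, 2 higher for both treatments against untreated, 5 higher for both against CHIR99021 and 1 higher for both against BMP4, and 0 elsewhere. Over the settings, the ATF4 arm median lay between 0.07 and 0.14 for CHIR99021 and between -0.01 and 0.02 for BMP4 against untreated, between 0.01 and 0.07 for both against CHIR99021 and between 0.06 and 0.12 for both against BMP4. The chaperone arm median lay on either side of 0 for both single treatments (-0.04 to 0.04 for CHIR99021, -0.02 to 0.02 for BMP4). Under CHIR99021, ATF4 lay between 0.41 and 0.72 over the settings. DDIT3 moved to 0.30, DNAJC3 to 0.11 and SESN2 with both treatments to 0.39 without background correction, which compresses dim probes. By the mean over detected probes, WARS1 under CHIR99021 turned to 0.09 and SLC3A2 stood at -0.33. The sign was the same in all settings for 33 of 35 genes under BMP4, 29 under CHIR99021 and 30 with both treatments against untreated. Different probes of 1 gene disagreed by up to 0.25 at the median and 0.63 at the 90th percentile of genes, a range that holds most differences given here.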
